A study of Mus musculus with 141 samples.

Results

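The genes of bile acid synthesis and transport were examined in the livers, lungs and kidneys of Collaborative Cross (CC) mice. The group was chosen by name and holds 10 of the 24423 genes in each library: Cyp7a1, Cyp8b1, Cyp27a1, Cyp7b1, Abcb11, Slc10a1, Slc10a2, Nr0b2, Nr1h4 and Baat. RNA-seq was made from 1 male mouse of each of 47 CC strains, recombinant inbred lines that descend from the same founder strains, with 1 library from each of 3 tissues. The labels give adult mice of 8 to 12 weeks on the same wafer diet, and all were placed in clean-air chambers for 6 hours a day on weekdays over 2 weeks, so no treatment separates the groups. Whole tissue was used, and fewer cells of a type cannot be told apart from less RNA per cell. Strain, animal and library are the same unit here, so the p-values measure the spread across strains.

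Bile acids are made from cholesterol in hepatocytes. In the classic pathway, Cyp7a1 catalyses the first and rate-limiting step and Cyp8b1 adds the hydroxyl group that directs the product to cholic acid. In the alternative pathway, Cyp27a1 oxidizes the sterol side chain in mitochondria and Cyp7b1 hydroxylates the resulting oxysterols. Baat joins the finished acids to taurine or glycine, Abcb11 (the bile salt export pump) moves them into the canaliculus, Slc10a1 (NTCP) takes them back up from portal blood and Slc10a2 (ASBT) recovers them in the ileum and in the renal proximal tubule. Nr1h4 encodes FXR, the nuclear receptor for bile acids, and Nr0b2 encodes SHP, a co-repressor that FXR induces and that lowers Cyp7a1 and Cyp8b1.

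The members lie apart in the genome. In NCBIM37 with GENCODE vM1, Cyp27a1 spans chr1:74760148-74784464 on the plus strand, Abcb11 chr2:69076339-69180671, Cyp7b1 chr3:17971950-18143338 and Slc10a2 chr8:5085623-5105232, all on the minus strand. Chromosome 4 holds Cyp7a1 at chr4:6192759-6202780 and Baat at chr4:49502294-49519429 on the minus strand, and Nr0b2 at chr4:133109291-133112451 on the plus strand. Cyp8b1, a gene of 1 exon, lies at chr9:121823474-121825423, Nr1h4 at chr10:88916979-88996330 and Slc10a1 at chr12:82054172-82068971, all on the minus strand. Exons of Abcb11 overlap those of Gm13613 and Gm13614 on the opposite strand, and no other member shares exon bases with another gene. The files name 3 transcripts for Nr1h4, 2 for Slc10a1 and 1 for each of the other members. Only uniquely aligned reads were counted, so reads that fit several transcripts may be missing and the levels of Nr1h4 and Slc10a1 can be understated: of all genes with 1 transcript 43.3% had a median liver level above 1 TPM (transcript abundance scaled by length and depth), against 17.8% of those with more.

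RefSeq promoters (build GRCm38.p6) were at hand for 7 of the members, namely Cyp27a1, Abcb11, Nr0b2, Slc10a2, Cyp8b1, Nr1h4 and Slc10a1. The 250 bases before the start were searched on both strands for 3 words known from factors of the liver. These were CAAAGTCCA, a site of HNF4, TCAAGG, the core bound by LRH-1, and AGGTCA, the hexamer of many nuclear receptors. CAAAGTCCA was found in Cyp8b1 and in 0.384% of all 32851 promoters of that length. TCAAGG was found at 2 places in Nr0b2 and in 12.5% of all promoters. AGGTCA was found in Abcb11, Nr1h4, 1 of the 2 promoters listed for Slc10a1 and 14% of all promoters, and none of the words was found in the other Slc10a1 promoter. The words were chosen for these genes, do not overlap each other here and describe letters only, in the reference and not in the CC strains. The promoters of Cyp8b1 (chr9:121916306-121916555, minus strand), Nr0b2 (chr4:133553126-133553375, plus strand) and Abcb11 (chr2:69342617-69342866, minus strand) are shown with the matches in capitals, since Cyp8b1 holds the rarest word, Nr0b2 is the repressor and Abcb11 had the largest folds.
Cyp8b1: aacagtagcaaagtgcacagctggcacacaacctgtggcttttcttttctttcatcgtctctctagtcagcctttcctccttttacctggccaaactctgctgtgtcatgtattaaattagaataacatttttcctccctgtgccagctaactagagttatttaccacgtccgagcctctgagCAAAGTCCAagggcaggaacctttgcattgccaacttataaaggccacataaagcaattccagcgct
Nr0b2: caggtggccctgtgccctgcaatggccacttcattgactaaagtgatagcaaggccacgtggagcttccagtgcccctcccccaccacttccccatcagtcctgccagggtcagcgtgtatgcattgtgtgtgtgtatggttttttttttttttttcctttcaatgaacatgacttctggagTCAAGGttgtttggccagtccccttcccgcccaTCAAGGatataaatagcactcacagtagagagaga
Abcb11: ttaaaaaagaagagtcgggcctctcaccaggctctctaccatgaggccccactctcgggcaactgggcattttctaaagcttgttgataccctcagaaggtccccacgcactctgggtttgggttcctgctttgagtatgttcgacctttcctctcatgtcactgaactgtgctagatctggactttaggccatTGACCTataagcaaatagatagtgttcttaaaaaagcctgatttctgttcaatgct

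Library totals ranged from 1738046 to 42158454 counts in liver, from 2829104 to 17585682 in lung and from 3046695 to 15028553 in kidney. The tissue labels were checked against marker genes. The summed level of 6 hepatocyte markers (Alb, Ttr, Apoa1, Cps1, Tat and Serpina1c) was 56360 to 183327 CPM (counts scaled to a common library total by TMM) in liver, 1.91 to 629 CPM in lung and 2.81 to 1021 CPM in kidney, and none of the 6 had a median of 0 counts in any tissue. That of 6 proximal tubule markers was 12065 to 39463 CPM in kidney and 4.24 to 1098 CPM in liver, and that of 4 alveolar type 2 markers 3389 to 7809 CPM in lung. Each label matched its tissue. The lung of CC010 and the kidney of CC027 held the highest hepatocyte marker sums outside liver, and their values are given below where they touch a result.

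In liver, 4 of the enzymes with Abcb11 and Slc10a1 formed an upper tier, and Cyp7a1, the regulators and Slc10a2 a lower one. Levels of different genes are compared as TPM, which is scaled by transcript length. The mean was 674 ± 397 TPM for Cyp7b1, 512 ± 154 for Cyp27a1, 390 ± 151 for Abcb11, 364 ± 162 for Cyp8b1, 318 ± 118 for Slc10a1 and 276 ± 82.0 for Baat (SD, n = 47). Cyp7a1 came next at 139 ± 127 TPM, before Nr0b2 at 41.0 ± 28.5, Slc10a2 at 17.3 ± 14.7 and Nr1h4 at 8.34 ± 3.54 TPM (SD, n = 47). Neighbours in the order of mean log2(TPM + 0.1) were compared within strains by a two-sided sign-flip permutation test with 100000 draws, adjusted over 9 neighbour pairs.

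Within the upper tier most neighbours could not be separated. The mean difference was 0.16 ± 0.15 on the log2(TPM + 0.1) scale (SE, n = 47) between Cyp7b1 and Cyp27a1 (permutation q = 0.268), 0.13 ± 0.1 between Abcb11 and Cyp8b1 (permutation q = 0.21) and 0.15 ± 0.1 between Cyp8b1 and Slc10a1 (permutation q = 0.16). Cyp27a1 exceeded Abcb11 by 0.43 ± 0.07 in 39 of 47 strains (permutation q = 2.25e-05), and Slc10a1 exceeded Baat by 0.17 ± 0.05 in 32 of 47 strains (permutation q = 0.00405). The steps into the lower tier were larger. Baat exceeded Cyp7a1 by 1.42 ± 0.17 in 43 strains and Cyp7a1 exceeded Nr0b2 by 1.59 ± 0.24 in 39 strains (permutation q = 2.25e-05 for both, from the smallest p that 100000 draws can give). Nr0b2 exceeded Slc10a2 by 1.4 ± 0.24 in 35 strains (permutation q = 2.25e-05), and Slc10a2 exceeded Nr1h4 by 0.68 ± 0.19 in 28 strains (permutation q = 0.00157). The levels of Slc10a1 and Nr1h4 can be understated, as given above, so their places in this order are less certain.

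**Figure D1:**
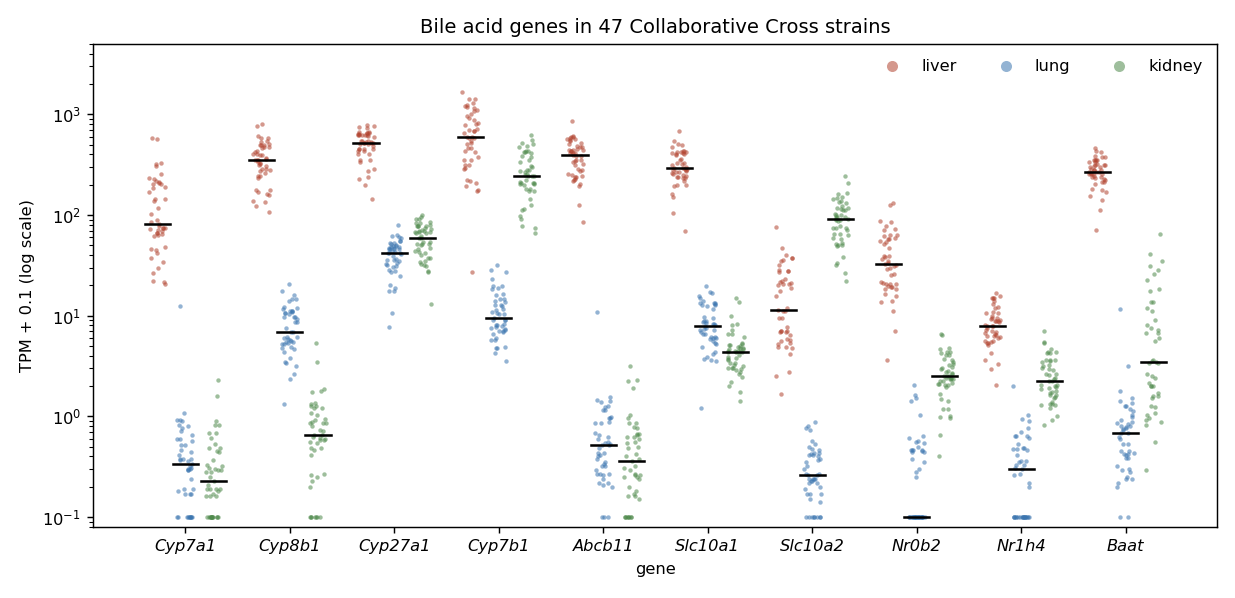
TPM + 0.1 on a log axis for the 10 genes, with 1 point per library for 47 strains in liver (red), lung (blue) and kidney (green) and a black bar at the median. Slc10a2 is the gene whose kidney values (median 90.6 TPM) sit above its liver values (median 11.3 TPM). Among the synthesis enzymes shown, Cyp7b1 has its kidney median (246 TPM) nearest to its liver median (598 TPM).

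The members were then compared between tissues, which asks how far the program is restricted to liver. A gene was called at a q of at most 0.1 in limma-voom with strain as a block where its log2 fold change was also 1 or more in size, over 12127 genes tested, and all 10 members were tested. All 10 were called higher in liver than in lung. Over all genes tested 55% were called in this comparison, 23.9% higher in liver and 31% higher in lung. The median log2 fold change of the 10 was 7.42, beside -0.06 over all genes. Against kidney 9 were called higher in liver and 1, Slc10a2, higher in kidney, where 36.4% of all genes were called. Liver was the higher tissue for 15.6% of all genes and kidney for 20.8%. The median over the members was 5.56, beside -0.003 over all genes.

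Of the synthesis enzymes, Cyp7a1 and Cyp8b1 of the classic pathway were close to liver-restricted on these depths. Cyp7a1 ranged from 43.9 to 1123 CPM in liver with a median of 232, from 0 to 9.13 in lung with a median of 0.237 and from 0 to 4.33 in kidney with a median of 0.177. All livers lay above all lungs and kidneys, and 27 of 47 lungs and 30 of 47 kidneys had at most 3 counts. The fitted log2 fold change was 10.16 ± 0.16 (SE) over lung (limma q = 4.5e-80) and 10.26 ± 0.16 over kidney (limma q = 3.7e-79). At such counts these values depend on the prior count, and the ratio of mean CPM was 702 over lung and 846 over kidney.

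Cyp8b1 ranged from 170 to 881 CPM in liver with a median of 418, from 1.28 to 6.48 in lung with a median of 3.29, and from 0 to 7.08 in kidney with a median of 0.324. Its lungs all had counts, from 8 to 164, while 25 of 47 kidneys had at most 3. Liver exceeded lung by 7.03 ± 0.1 (limma q = 5.2e-83) and kidney by 10.1 ± 0.14 (limma q = 3.9e-85) on the log2 scale. The median lung level was 0.786% of the median liver level for Cyp8b1 and 0.878% for Slc10a1, where the 6 hepatocyte markers stood at 0.0221% to 0.0719%. The lung of CC028 had the lowest hepatocyte marker sum, at 1.91 CPM. It had 1.29 CPM of Cyp8b1 and 2.3 CPM of Slc10a1, and its Cyp7a1 and Abcb11 were at 0. The part of hepatocyte transcripts in the lung values of Cyp8b1 and Slc10a1 was not tested.

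Among the members, the enzymes of the alternative pathway were the synthesis enzymes with the highest kidney levels relative to liver. In lung the median of Cyp7b1 was 0.546% of that in liver, against 2.87% for Cyp27a1 and 0.786% for Cyp8b1. Cyp27a1 ranged from 392 to 874 CPM in liver with a median of 597, from 10.3 to 27.2 in lung with a median of 17.1 and from 12.5 to 55.2 in kidney with a median of 37.1. Liver did not overlap with either tissue, and lung and kidney overlapped. It had the smallest liver-lung fold of the members, 5.17 ± 0.05 on the log2 scale (limma q = 4.8e-96), and liver exceeded kidney by 4.1 ± 0.05 (limma q = 5e-87).

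Cyp7b1 ranged from 50.4 to 3504 CPM in liver with a median of 881, from 2.12 to 13.6 in lung with a median of 4.81 and from 46.3 to 429 in kidney with a median of 172. The kidneys overlapped the lower livers. Liver exceeded lung by 7.28 ± 0.14 (limma q = 1.8e-70) and kidney by 2.17 ± 0.14 (limma q = 1.4e-28), the latter in 45 of 47 strains. Its median in kidney was thus 19.6% of that in liver, against 6.22% for Cyp27a1 and 0.0775% for Cyp8b1.

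Baat, the conjugating enzyme, was the steadiest member in liver and the most uneven in kidney. It ranged from 237 to 469 CPM in liver with a median of 314, from 0 to 3.91 in lung with a median of 0.217 and from 0.158 to 34.6 in kidney with a median of 2. No lung or kidney reached the livers. Liver exceeded lung by 10.23 ± 0.21 (limma q = 6.8e-69) and kidney by 6.42 ± 0.16 (limma q = 7.6e-61). The highest kidneys were CC027 with 34.6 CPM and CC061 with 32.6 CPM. The kidney of CC027 also had the highest hepatocyte marker sum of all kidneys, 1021 CPM, while that of CC061 had the lowest, 2.81 CPM, with Alb at 0.842 CPM and Cyp7a1, Cyp8b1 and Abcb11 at 0.

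Among the transporters, Abcb11 had the largest folds. It ranged from 546 to 2036 CPM in liver with a median of 1183, from 0 to 9.42 in lung with a median of 0.433 and from 0 to 10.6 in kidney with a median of 0.356. The fitted difference was 11.14 ± 0.14 over lung (limma q = 2.2e-88) and 11.22 ± 0.15 over kidney (limma q = 5.8e-85), and the ratio of mean CPM was 1459 and 1279. The highest lung was CC010, which also had the highest lung values of Cyp7a1 (9.13 CPM), Baat (3.91 CPM) and Nr0b2 (0.435 CPM) and a hepatocyte marker sum of 629 CPM against a median of 58.9 CPM. The highest kidney was CC027. The part of these hepatocyte transcripts in the member values of CC010 and CC027 was not tested. Leaving out either strain changed no count of members called between liver and another tissue.

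Slc10a1 ranged from 193 to 536 CPM in liver with a median of 318, from 0.959 to 5.98 in lung with a median of 2.79 and from 0.709 to 6.35 in kidney with a median of 2.13. Liver stood apart, and lung and kidney overlapped almost wholly. Liver exceeded lung by 6.77 ± 0.08 (limma q = 2.5e-93) and kidney by 7.09 ± 0.08 (limma q = 3e-93).

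Slc10a2 followed another pattern. It ranged from 7.36 to 186 CPM in liver with a median of 35.8, from 0 to 0.959 in lung with a median of 0.173 and from 30.9 to 415 in kidney with a median of 119. Liver and kidney overlapped, 33 of 47 lungs had at most 3 counts, and liver was the higher in 4 of 47 strains. Liver was lower than kidney with a log2 fold change of -1.69 ± 0.13 (limma q = 2.1e-22) and higher than lung by 7.56 ± 0.22 (limma q = 1.1e-55). The liver of CC035 had the highest proximal tubule marker sum among livers, 1098 CPM, with 581 CPM of the marker Kap and 18.9 CPM of Slc10a2, below the liver median. The liver with the next highest Kap, CC033 at 480 CPM, had 139 CPM of Slc10a2, the second highest liver value, and the liver of CC036, with 265 CPM of Kap, had 50.9 CPM. The part of kidney transcripts in the liver values of Slc10a2 was not tested. The summed level of 6 cholangiocyte markers was 2.54 to 11.3 CPM in liver, with Spp1 at a median of 0 counts.

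The regulators had fewer counts than most enzymes and transporters, and for Nr1h4, with 3 transcripts, the level can be understated. Nr0b2 ranged from 8.36 to 83.8 CPM in liver with a median of 26, from 0 to 0.435 in lung with a median of 0 and from 0.158 to 2.33 in kidney with a median of 0.935. Liver stood above both, by 8.29 ± 0.13 over lung (limma q = 1.1e-80) and by 4.69 ± 0.1 over kidney (limma q = 9.4e-66) on the log2 scale. Only 3 of 47 lungs had more than 3 counts of it. Nr1h4 ranged from 2.22 to 18.1 CPM in liver with a median of 11.2, from 0 to 0.697 in lung with a median of 0.0865 and from 0.705 to 3.65 in kidney with a median of 1.56. The lowest liver, CC036, had 3 counts in the smallest liver library and fell among the kidneys. Liver exceeded lung by 6.44 ± 0.12 (limma q = 5.9e-73) and kidney by 2.73 ± 0.11 (limma q = 8.9e-44), and the median kidney level was 14% of the liver median.

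**Figure D2:**
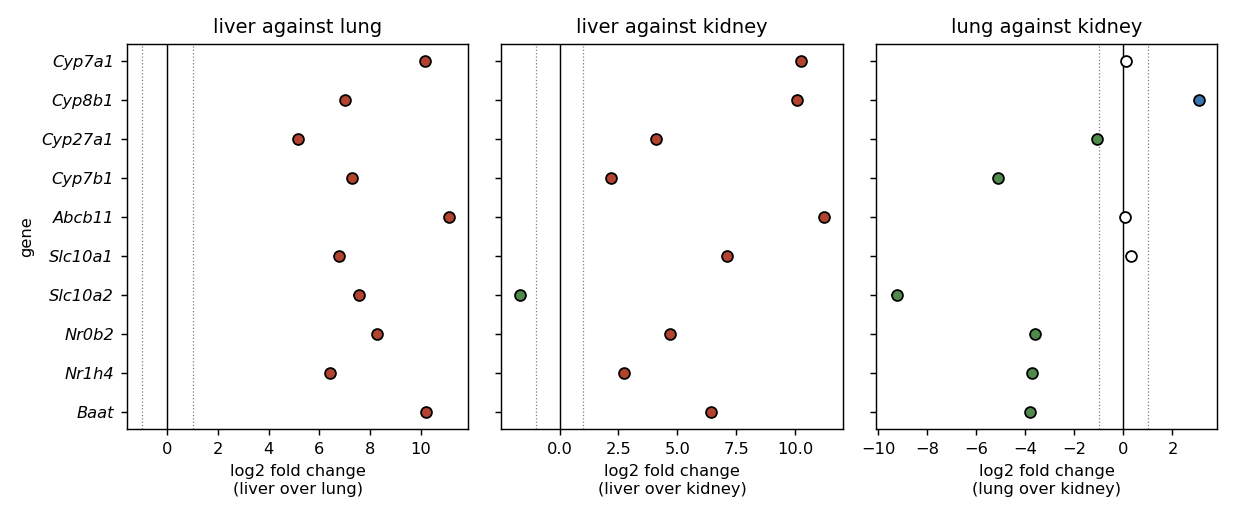
Log2 fold change of the 10 genes in the 3 comparisons of tissues, with bars of 1 SE, from limma-voom. Filled points were called, in the colour of the higher tissue (red liver, blue lung, green kidney), open points were not, and dotted lines mark a log2 fold change of 1 in either direction. Slc10a2 at -1.69 is the only member to the left of 0 in liver against kidney, and Cyp8b1 at 3.07 the only one called higher in lung than in kidney.

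Between lung and kidney, 1 member was called higher in lung and 6 higher in kidney, where 46.1% of all genes were called, 25.5% higher in lung and 20.6% higher in kidney. The median of the members was -2.34, beside 0.04 over all genes. These values share libraries with the comparisons above. Slc10a2 was lower in lung with a log2 fold change of -9.25 ± 0.22 (limma q = 5.5e-63) and Cyp7b1 with -5.11 ± 0.14 (limma q = 1.7e-56), both in 47 of 47 strains and without overlap. Baat (-3.81 ± 0.2), Nr1h4 (-3.71 ± 0.12) and Nr0b2 (-3.6 ± 0.12) were also lower in lung, with limma q from 6.3e-52 to 1.9e-34.

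Cyp8b1 went the other way, higher in lung by 3.07 ± 0.13 in 46 of 47 strains (limma q = 1.9e-41). The exception was CC027, with 7.08 CPM in kidney, above every lung, and 3.62 CPM in its lung. Cyp27a1 was lower in lung than in kidney in 47 of 47 strains, at -1.08 ± 0.05 (limma q = 9.8e-36). Its call was lost under other scalings, with log2 fold changes from -0.54 to -0.94. Slc10a1 was 0.32 ± 0.08 higher in lung (limma q = 9.2e-05), under the fold threshold. Cyp7a1 (0.1 ± 0.15, limma q = 0.51) and Abcb11 (0.07 ± 0.14, limma q = 0.6) did not pass. At most 3 counts stood behind 27 of 47 lung and 30 of 47 kidney values of Cyp7a1, and behind 14 of 47 lung and 21 of 47 kidney values of Abcb11.

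Strains differed widely in some members and little in others. As a measure, the SD across strains of log2 CPM in liver was set beside that of 5770 genes with a median of at least 10 CPM there, whose median SD was 0.31. It was 1.23 for Cyp7a1 (rank 119 from the highest), 1.21 for Slc10a2 (rank 127), 1.05 for Cyp7b1 (rank 172) and 0.85 for Nr0b2 (rank 267). Thus the rate-limiting enzyme of the classic pathway was in the top few percent, with 97.9% of the genes less variable. Abcb11 (0.42) and Slc10a1 (0.34) were nearer the median gene, and Cyp27a1 (0.27) and Baat (0.22) were below it, so that Baat was less variable than all but 15.9% of the genes. Cyp8b1 and Nr1h4 both had an SD of 0.56, and for Nr1h4, with a median of 61 counts, counting error adds to it.

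The range of Cyp7a1 in liver was 25.6-fold, with CC024 (1123 CPM) and CC068 (1103 CPM) highest and CC002 (43.9 CPM) and CC043 (50.3 CPM) lowest. The values between them were spread without a wide gap. CC002, lowest in Cyp7a1, was the highest strain in Nr0b2, with 83.8 CPM, but over all strains the correlation of the 2 genes, given below, was not called. The range of Cyp7b1 was 69.5-fold and rested on both ends, since CC016 had 50.4 CPM where the next lowest strain, CC032, had 220 CPM, and CC038 had 3504 CPM where the next highest, CC043, had 2022 CPM. The liver of CC016 had a hepatocyte marker sum of 105948 CPM against a median of 103467 CPM. It had the highest liver sums of Kupffer cell markers (854 CPM, median 263 CPM) and of alveolar macrophage markers (232 CPM, median 3.88 CPM). Their relation to its Cyp7b1 value was not tested.

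Slc10a2 was highest in CC015 in both liver and kidney. That strain had 186 CPM in liver, where the next, CC033, had 139 CPM, and 415 CPM in kidney, where the next, CC045, had 221 CPM. CC057 was lowest in kidney with 30.9 CPM and second lowest in liver with 8.69 CPM. In kidney the SD of log2 CPM was 0.62 for Slc10a2 and 0.7 for Cyp7b1, among 5881 genes with a median of 0.27, and 0.43 for Cyp27a1. That of Baat in kidney was 1.82, at a median of 15 counts, too low for the gene to enter the list it was compared with.

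**Figure D3:**
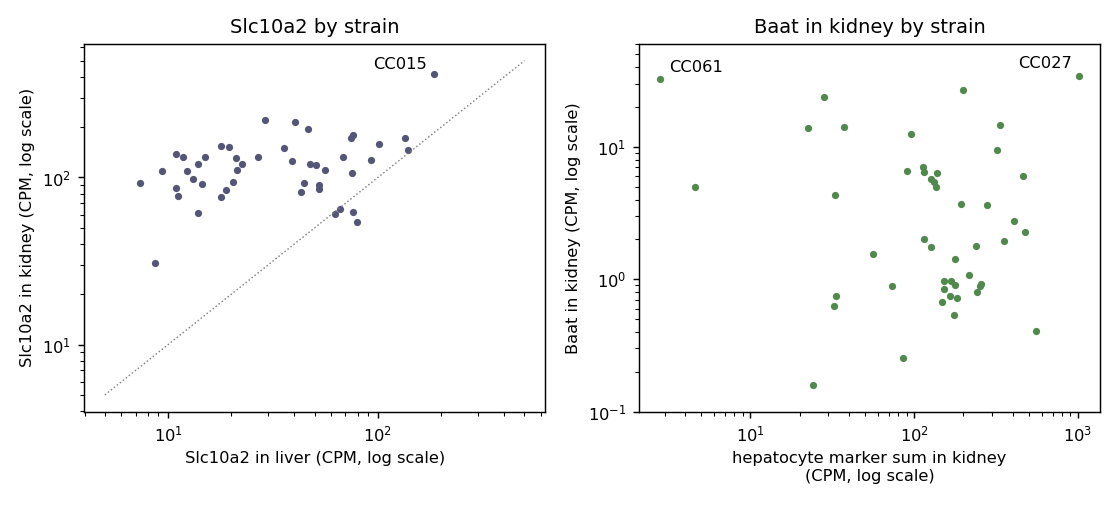
Left, Slc10a2 in kidney against liver (CPM, log axes), 1 point per strain, with a dotted line of equal values; all but 4 strains lie above it and CC015 is highest on both axes. Right, Baat in kidney against the sum of 6 hepatocyte markers in the same kidney (CPM, log axes); the highest Baat values, CC027 and CC061, lie at the highest (1021 CPM) and the lowest (2.81 CPM) marker sum.

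The strains were next used to ask which members vary together in liver. Pearson's r was computed on rank-normal values of TMM-scaled TPM, with 100000 permutations and adjustment over the 45 pairs, and q of at most 0.1 was called. Of these, 4 pairs were called, all positive. The closest was Cyp7a1 with Nr1h4, the enzyme and the bile acid receptor, at r = 0.598 (permutation q = 0.0009, Spearman's rho = 0.635 with permutation p = 1e-05, the smallest that can be had). It was 0.571 without the 2 strains farthest from the median of the first gene named, here Cyp7a1. Given the library total it was 0.535, and given the clock genes Arntl and Dbp 0.537.

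Cyp8b1 and Cyp27a1 had r = 0.476 (permutation q = 0.0151, rho = 0.473 with p = 0.00093), and 0.434 without the 2 farthest strains. Cyp27a1 and Nr0b2 had r = 0.43 (permutation q = 0.042, rho = 0.459 with p = 0.00136), and 0.466 without them. Cyp7a1 and Baat had r = 0.413 (permutation q = 0.0448, rho = 0.374 with p = 0.01), and 0.409 without them, but given the library total r was 0.347 and q = 0.15. In this scaling each of the 4 pairs joined an enzyme to another enzyme or to a regulator. No transporter was in a called pair, which was not tested as a pattern and did not hold on TPM without TMM.

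Pairs for which a relation is known from other work were not all called. Cyp7a1 and Nr0b2, the enzyme and its repressor, had r = -0.245 (permutation q = 0.258). Cyp7a1 and Cyp8b1 of the classic pathway had r = 0.079 (permutation q = 0.727). The lowest r of the 45 was -0.268, between Cyp8b1 and Slc10a2 (permutation q = 0.258). The median over the 45 pairs was 0.082. The count depends on the scaling, since TPM without TMM gave 27 called pairs of 45, with r between Cyp7a1 and Nr1h4 at 0.564.

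**Figure D4:**
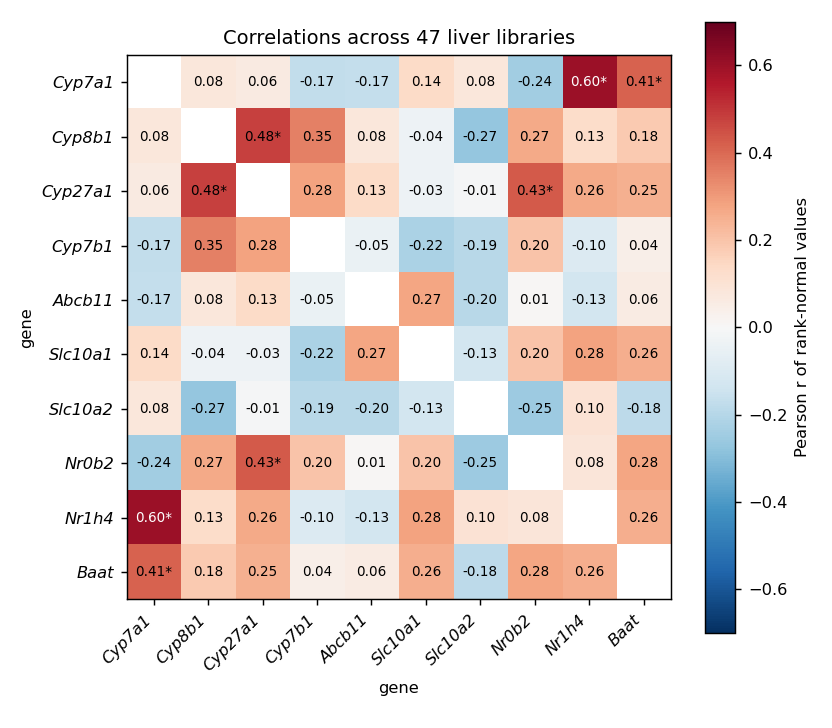
Pearson's r of rank-normal values across 47 liver libraries for the 45 pairs of the 10 genes, from blue (negative) to red (positive), with stars at q of at most 0.1. The 4 starred pairs are Cyp7a1 with Nr1h4 (0.6) and Baat (0.41), and Cyp27a1 with Cyp8b1 (0.48) and Nr0b2 (0.43).

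Each liver member was also set against 6 genes that report on other states of the liver: Arntl and Dbp of the circadian clock, Sqle of sterol synthesis, Saa2 of the acute phase, and Cyp4a14 and Cyp2b10, targets of PPARA and CAR. Of 60 pairs 1 was called, Cyp8b1 with Arntl at r = 0.474 (permutation q = 0.0618, rho = 0.493 with p = 0.00061). Without the 2 farthest strains r was 0.454, with q = 0.11. Arntl was low in liver, from 0 to 7.11 CPM, with 2 libraries at 0. Dbp, which peaks in the opposite phase of the clock, had r = -0.279 with Cyp8b1 (permutation q = 0.187), and r = 0.396 with Cyp7a1 (permutation q = 0.111) and 0.363 with Nr1h4 (permutation q = 0.115). Cyp27a1 and Cyp2b10 had r = 0.399 (permutation q = 0.111). At an unadjusted p under 0.05 there were 13 pairs.

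**Figure D5:**
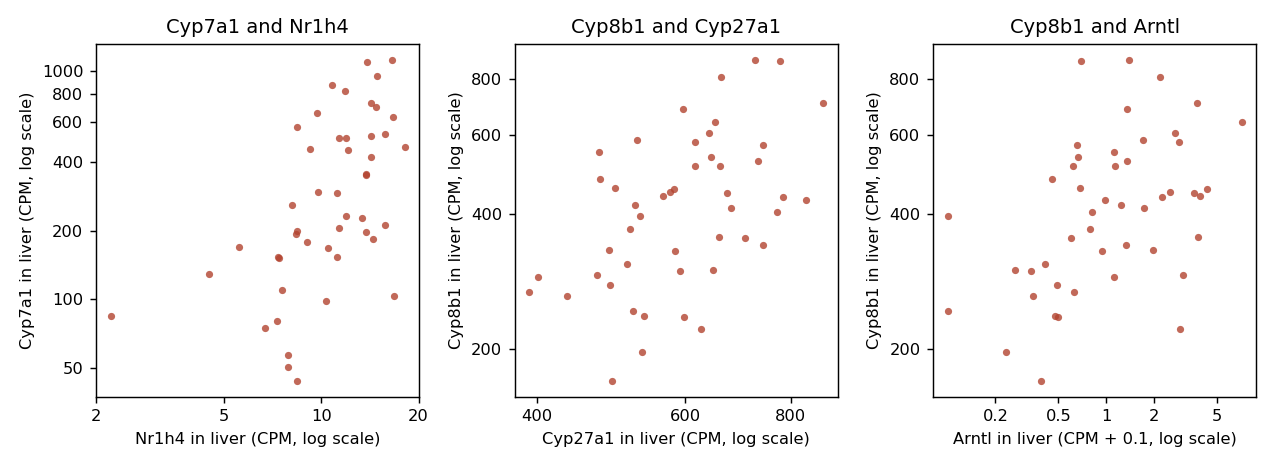
CPM in liver on log axes, 1 point per strain (n = 47), for Cyp7a1 against Nr1h4 (r = 0.598), Cyp8b1 against Cyp27a1 (r = 0.476) and Cyp8b1 against Arntl (r = 0.474, Arntl shown as CPM + 0.1). In the first panel the lowest Nr1h4 value, 2.22 CPM, is CC036.

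In kidney 7 members had a median of at least 5 counts, and none of their 21 pairs was called, with r from -0.209 to 0.26 and 0 pairs at an unadjusted permutation p under 0.05 by Pearson's r or by rho. TPM without TMM gave 5 called pairs. Against markers of kidney segments (Slc34a1 and Slc7a13 of the proximal tubule, Umod and Aqp2 beyond it), 1 of 28 pairs was called, Cyp27a1 with Slc34a1 at r = 0.414 (permutation q = 0.0997, rho = 0.361 with p = 0.0129), and 0.378 without the 2 farthest strains (q = 0.15). Slc10a2 and Cyp7b1 had r = 0.361 and 0.362 with Slc7a13 (permutation q = 0.122 for both).

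Members were then compared with themselves across tissues of the same mouse. Of 15 pairs 2 were called, Cyp27a1 between lung and kidney at r = 0.381 (permutation q = 0.0707, rho = 0.316 with p = 0.0308) and Cyp7b1 between liver and lung at r = 0.378 (permutation q = 0.0707, rho = 0.35 with p = 0.016). Without the 2 strains farthest from the median in the first tissue named, r was 0.285 and 0.259 (q = 0.39 for both), so neither call held. Both q values lay near the threshold, and without CC010 alone r was 0.325 and 0.361 (q = 0.18 for both), and without CC015 alone 0.354 and 0.337 (q = 0.11 for both). On log2(TPM + 1) r was 0.546 for Cyp27a1 (q = 0.00075) and 0.384 for Cyp7b1 (q = 0.063). Slc10a2 between liver and kidney had r = 0.321 (permutation q = 0.143), and 0.235 without CC015 (q = 0.34).

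For each member, the 3 genes most like it across strains were named in the tissue where it was highest, by Spearman's rho of log2 CPM over 47 strains, as a description. Cyp7a1 was most like Nr1h4 (0.623), Parp12 (0.607) and Slc16a12 (0.59), and Nr1h4 most like Fnip2 (0.626), Cyp7a1 (0.623) and Narf (0.622), out of 5769 genes in liver. The 2 members were thus in each other's list. Cyp8b1 was most like Fbxo8 (0.553) and Abcb4 (0.529), the phospholipid transporter of the canaliculus. Cyp27a1 was most like Gfer (0.639), Hint2 (0.616) and Btd (0.613).

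Cyp7b1 had the highest values of any member, with Serpina3k (0.738), Aadat (0.736) and Hao1 (0.705). Abcb11 was most like Elovl5 (0.671), Acsl5 (0.619) and Scd1 (0.61), all enzymes of fatty acid metabolism. Slc10a1 was most like the glucose transporter gene Slc2a2 (0.644), Rgs16 (0.614) and Dkc1 (0.595). Nr0b2 was most like Mlycd (0.614), Emg1 (0.598) and Acadvl (0.583), and Baat most like Pgrmc1 (0.635), Cmpk1 (0.623) and Ndufb6 (0.607). In kidney Slc10a2 was most like Fermt2 (0.607), Vps13a (0.605) and Atp2b1 (0.6) among 5880 genes.

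The wider pathway was represented by a list of 48 further genes in 3 groups, of which 34 passed the filter on low counts. Between liver and lung 26 were called higher in liver and 3 higher in lung, against the 23.9% and 31% of all genes given above, with a median log2 fold change of 5.04. Between liver and kidney 18 were called higher in liver and 5 higher in kidney, against 15.6% and 20.8% of all genes, with a median of 1.12. Between lung and kidney 5 were called higher in lung and 18 higher in kidney, against 25.5% and 20.6% of all genes, with a median of -1.12. Of the 14 genes that did not pass the filter, 11 have more than 1 transcript in the files, against 5 of the 34 that passed. They include Nr5a2 (LRH-1), Rxra, Nr1i3 and Cebpa, whose median liver values were 13, 11, 4 and 0 counts. A low value here may thus not measure the expression of these genes, and its cause was not tested.

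Of the synthesis group 13 of 14 were tested, and 11 were called higher in liver than in lung, beside 23.9% of all genes. The largest folds were those of Cyp2c70 (11.23 ± 0.15, limma q = 2.2e-85), which makes muricholic acids in mice, and Slc27a5 (10.7 ± 0.12, limma q = 4.9e-94), the bile acid CoA ligase that acts before Baat. Over kidney these same genes led, at 10.54 ± 0.15 and 10.58 ± 0.12 (limma q = 4.8e-84 and 2.6e-92), with 7 called higher in liver, beside 15.6% of all genes. Ch25h, cholesterol 25-hydroxylase, was the only one of the group called lower in liver, with log2 fold changes of -3.9 ± 0.18 against lung (limma q = 3.5e-38) and -2.01 ± 0.18 against kidney (limma q = 1.8e-18), and was higher in lung than in kidney by 1.88 ± 0.18 (limma q = 1.1e-17). Between lung and kidney 8 were called higher in kidney, beside 20.6% of all genes, led by Slc27a2 (-9.19 ± 0.08, limma q = 4.4e-100) and Akr1d1 (-7.53 ± 0.13, limma q = 5.1e-76). Slc27a2 was thus abundant in kidney, at 4150 ± 1203 TPM (SD, n = 47).

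Of the transport group 14 of 17 were tested. Of these, 10 were called higher in liver than in lung, beside 23.9% of all genes, and 9 higher in liver than in kidney, beside 15.6%. Slco1b2, a basolateral uptake carrier, led both, at 11.17 ± 0.14 over lung (limma q = 9.9e-90) and 10.94 ± 0.14 over kidney (limma q = 1e-87). Slco1a1 was at 10.3 ± 0.14 over lung (limma q = 4.2e-84), and Abcg5, which exports sterols, at 9.07 ± 0.11 over kidney (limma q = 1.6e-89). The kidney-high members of the group included the basolateral exporter of bile acids that works with Slc10a2. Its subunits Slc51a and Slc51b had log2 fold changes of -7.94 ± 0.12 and -4.7 ± 0.11 in liver against kidney (limma q = 2.8e-81 and 1.1e-63), with 159 ± 67 and 97.6 ± 31.9 TPM in kidney (SD, n = 47), beside 94.5 ± 46.2 TPM for Slc10a2.

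Between lung and kidney 4 of the 14 transport genes tested were called higher in lung, near the 25.5% of all genes, led by Abcc3 (3.77 ± 0.11, limma q = 5.7e-55) and Abcb1a (1.82 ± 0.15, limma q = 8.1e-21). In kidney 6 were called higher, beside 20.6% of all genes, led by Slco1a1 (-9.3 ± 0.14, limma q = 6.7e-80) and Abcc2 (-8.24 ± 0.09, limma q = 2.7e-94). Abcb1a was also the transport gene called higher in lung than in liver, with a log2 fold change of -2.33 ± 0.15 (limma q = 2.8e-27).

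Of the regulation group only 7 of 17 were tested. In liver against lung 5 were called higher in liver, beside 23.9% of all genes. They were led by Hnf4a (7.97 ± 0.12, limma q = 6.6e-82) and Klb (6.55 ± 0.11, limma q = 1e-77), the co-receptor for the intestinal hormone that represses Cyp7a1. In liver against kidney Klb (6.38 ± 0.11, limma q = 1.3e-75) and Prox1 (4.01 ± 0.1, limma q = 1.7e-61) were called higher in liver, and Vdr, the vitamin D receptor, higher in kidney (-8.39 ± 0.11, limma q = 2.8e-85). Vdr was also higher in lung than in liver (-3.66 ± 0.11, limma q = 3e-54). Hnf4a (-7.89 ± 0.12, limma q = 3e-81) led the 4 genes called higher in kidney than in lung, beside 20.6% of all genes. The median level of Hnf4a in liver, lung and kidney was 14.6, 0 and 14.9 CPM.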

How the data were processed

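RNA-seq of liver, lung and kidney from 1 male mouse of each of 47 strains was used. The authors aligned single-end reads to strain-specific pseudo-genomes made from NCBI build 37 (mm9) with STAR 2.5.3a and quantified uniquely aligned reads with RSEM. The expected count deposited by the authors is per gene, and only 25 values were not whole numbers. The TPM and FPKM deposited by the authors scale these counts by transcript length and depth, and FPKM served only as an alternative. The effective length the authors deposited was read for description.

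Counts were rounded and scaled by TMM (edgeR 4.0.16). The low-count filter kept genes above 1 CPM in 30% of libraries or more, which were tested in limma-voom (limma 3.58.1, R 4.3.3) over all libraries, with Benjamini-Hochberg adjustment over 12127 genes, and called at q ≤ 0.1 with a log2 fold change of 1 or more in either direction. Tissues of a strain come from the same mouse by the study's design and were blocked: deviations from the tissue mean correlated at a median r of 0.17 to 0.21 within strains and -0.01 to 0 between them. Correlations used rank-normal values (Blom offset 0.375) with 100000 permutations, for genes with a median of at least 5 counts, and pseudocounts were 0.1. A value of at most 3 counts was taken as the depth limit, for counting error only. The procedures were tested on simulated data. The members, gene lists, markers and tests were chosen with earlier results of these data known. Named were all members, in each pathway group and comparison the 2 called genes with the largest fold in each direction, the 3 genes most alike among those with a median of at least 10 CPM, and markers, of which 2 genes are not reported here. Alternatives covered scaling, filter, tool (DESeq2 1.42.0, edgeR), thresholds, replicate block, scale and strains left out, of which CC010, CC015, CC027 and CC061 were chosen after seeing the data. Results of other groups of genes and a batch assignment were not used here. Correlations and plots were made in Python 3.11.15 (scipy 1.17.1, numpy 2.4.6, matplotlib 3.10.9, pandas 2.3.3).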

Additional observations from a re-analysis of the deposited data

How the results depend on the processing

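The counts of members called in each comparison were the same within 1.5 times under every alternative run, apart from the fold threshold: without it 2 members, not 1, were higher in lung than in kidney. All 10 liver-lung and all 10 liver-kidney members kept direction and call. Without the replicate block (no paired comparison of a strain's tissues) 10, 10 and 7 members were called in liver against lung, liver against kidney and lung against kidney, as with it, and the liver-kidney log2 fold change of Slc10a2 was -1.8. Total counts moved the median log2 fold change of all genes by -1.38 for liver against lung and -0.95 for liver against kidney, and gave 1186 genes higher in liver and 7474 higher in lung (2901 and 3763 with TMM), 981 higher in liver and 5795 higher in kidney (1891 and 2521), and 4046 higher in lung and 1831 higher in kidney (3089 and 2502). The signs of lung against kidney for Cyp7a1 and Abcb11, neither called, turned: Cyp7a1 to -0.04 without the low-count filter, -0.05 without the replicate block and -0.09 without CC010, and Abcb11 to -0.07 in edgeR, -0.03 with 2 tissues only and -0.01 without CC010. Pathway genes higher in lung than in liver were 6 on log2(TPM + 0.1). Those higher in kidney than in liver were 10 on total counts and on both TPM scales and 9 without the fold threshold, and those higher in lung than in kidney were 8 without it.

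Counts of correlations moved most with TPM without TMM, to 27 of 45 in liver, 5 of 21 in kidney, 15 of 60 with companion genes, 19 of 28 with kidney segment markers and 0 of 15 between tissues. With companion genes there were 2 given the library total, 0 without the 2 farthest strains and 4 without CC010. Given Arntl and Dbp there were 0. All pairs with these 2 genes were left out there, so the call of Cyp8b1 with Arntl was not checked. With segment markers there were 4 given Slc34a1 and Umod, out of the pairs with Slc7a13 and Aqp2 only. The call of Cyp27a1 with Slc34a1 was thus not checked there. On log2(TPM + 1), on log2 CPM, without CC032 and CC042 or without the 2 farthest strains there were 0. Between tissues there were 4 on log2(TPM + 1), and 0 given the library total, without the 2 farthest strains, without CC032 and CC042, without CC010 or without CC015. The cause was not tested. The order of members in liver by TPM kept 6 of 9 separated neighbours with a pseudocount of 1 and with FPKM. Of 114 values of named correlations 91 kept their call, 19 lost it, 4 gained it and 0 changed sign. Depth limits Cyp7a1 and Cyp8b1 in kidney and Cyp7a1, Slc10a2, Nr0b2, Nr1h4 and Baat in lung, where the median library held at most 3 counts.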

Other observations

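Cyp46a1, cholesterol 24-hydroxylase, which is best known from neurons, was outside the rule for named genes and was chosen after its values were seen. In liver it ranged from 0.374 to 182 CPM with a median of 3.99, and 18 of the 47 strains were above 10 CPM. The highest strains were CC049 at 182 CPM and CC002 at 116 CPM. In lung it ranged from 0 to 0.869 CPM and in kidney from 0.168 to 1.87 CPM.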
